A study of Mus musculus with 8 samples.

Results

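The 10 genes described here were chosen by symbol among the 22504 gene rows of the deposited expression table. These genes and the pathway and marker lists below were chosen with earlier results of these data known. Shares over all genes therefore stand beside their counts as a description only. The 10 genes cover bile acid synthesis (Cyp7a1, Cyp8b1, Cyp27a1 and Cyp7b1), conjugation (Baat), transport (Slc10a1, Abcb11 and Slc51b) and control (Nr1h4 and Nr0b2). All 10 were above 0 in every sample and all 10 passed the filter on low values, which asked that 4 or more of the 8 samples reach an FPKM of 1. FPKM counts sequenced fragments, scaled for transcript length and for the total of mapped fragments. The samples came from the livers of 129S4 mice that lack fumarylacetoacetate hydrolase (Fah-/-). Such mice accumulate toxic products of tyrosine breakdown unless they drink NTBC, which inhibits an enzyme further up the pathway. Moderate chronic liver injury (MCLI) was set by lowering NTBC to 2.5% of the standard dose, and severe acute liver injury (SALI) by withdrawing it. C 8w had 8 weeks of MCLI (n = 3), C 8w + A 4w had 8 weeks of MCLI and then 4 weeks of SALI (n = 3), and C 12w had 12 weeks of MCLI (n = 2). C 8w + A 4w is also called the SALI group. All 3 groups therefore share the Fah deletion and at least 8 weeks of injury, and no liver on full NTBC was analysed here. The tissue label of C 12w is tumor and that of the other groups is liver. How much surrounding liver a C 12w sample held is not given in the sources used here, so 4 more weeks of MCLI and tumor tissue cannot be told apart.

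Bile acids are made from cholesterol in hepatocytes. In the classic route CYP7A1 adds the first hydroxyl group and sets the rate, and CYP8B1 then directs the product towards cholic acid. The alternative route starts with CYP27A1 and goes through CYP7B1. BAAT joins the finished acid to taurine or glycine. NTCP, encoded by Slc10a1, takes conjugated bile acids up from portal blood, and BSEP, encoded by Abcb11, pumps them into the bile canaliculus. OSTβ, encoded by Slc51b, is the partner of OSTα in a basolateral carrier that can return bile acids to blood. The nuclear receptor FXR (Nr1h4) senses bile acids. Among its known targets are Nr0b2, which encodes the repressor SHP, Abcb11 and Slc51b, while Cyp7a1 and Cyp8b1 are held down by SHP and by FGF signals.

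One series of sample codes covers the 5 MCLI samples (C 8w and C 12w) and another covers the 3 SALI samples, so code series and group cannot be told apart in any comparison with the SALI group. The largest gaps between the series fell mostly on genes that share sequence with another annotated gene, be it a copy or an overlapping neighbour. Of the 10244 genes tested, 34 had FPKM + 1 at least 16 times as high in the lowest SALI sample as in the highest of the other 5, and 33 of those 34 share over 2% of their 50-base windows with another annotated gene, against 38.2% of all genes tested. The exception was mt-Atp8. Alb, which encodes albumin, was listed at 0 in the 5 MCLI samples and between 12946 and 16950 in the SALI group, and so did not enter the test. Similar gaps held for Ppia (0.408 to 0.533 against 761 to 848), Gapdh (0.098 to 0.247 against 68.2 to 99.9) and Rpl23a (0 against 394 to 477). Actb had no such gap, at 126 to 263 against 262 to 335. In all, 6 genes were listed at 0 in every MCLI sample and at 1 or more in every SALI sample, and 1 gene the reverse. Cyp7a1, Cyp8b1, Cyp27a1, Cyp7b1, Baat, Nr1h4 and Nr0b2 share none of their windows with another gene. Slc10a1 shares 0.957%, Abcb11 1.68% and Slc51b 6.52%, the last with Rasl12. The summed FPKM of the other 9 hepatocyte markers was 11630 to 14710 in C 8w, 10890 to 12830 in the SALI group and 9681 to 15810 in C 12w, but its members did not move together. Apoa1 was at a mean of 3114 in C 8w and 6365 after SALI, Ttr at 5794 and 3461, and Apoc3 at 1327 and 393. Tat, Cps1, Pck1 and Arg1 fell to 0.45 to 0.51 of their C 8w means, Hnf4a to 0.91 and Asgr1 to 0.85. Ttr and Apoa1 had the largest means, so the sum mostly follows them. Fah itself read 13.5 to 16.8 in the MCLI samples and 5.02 to 6.36 in the SALI samples. Which part of Fah the allele removes is not given in the sources used here, so these levels do not check the genotype. The extraction protocol in the labels names retina. The photoreceptor markers Crx and Rcvrn were listed at 0 in all 8 samples, but since Alb too is listed at 0 in 5 of them, a listed 0 does not show that a gene was not expressed.

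Promoters are shown for 4 of the genes whose levels are compared here, because FXR and NR5A2 motifs could be read in them. Each run holds the 250 bases before the RefSeq start (build GRCm38.p6, written 5′ to 3′ on the strand of the gene), and capitals mark the matches. RefSeq promoter entries were matched for 7 of the 10 genes. Abcb11 lies at chr2:69342617-69342866 on the minus strand, Slc51b at chr9:65422774-65423023 on the minus strand, Cyp8b1 at chr9:121916306-121916555 on the minus strand and Nr0b2 at chr4:133553126-133553375 on the plus strand.
Abcb11: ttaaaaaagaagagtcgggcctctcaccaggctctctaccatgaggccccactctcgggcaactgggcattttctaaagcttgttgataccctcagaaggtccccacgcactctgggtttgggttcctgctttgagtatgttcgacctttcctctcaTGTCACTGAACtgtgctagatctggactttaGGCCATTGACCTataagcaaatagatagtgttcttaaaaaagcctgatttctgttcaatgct
Slc51b: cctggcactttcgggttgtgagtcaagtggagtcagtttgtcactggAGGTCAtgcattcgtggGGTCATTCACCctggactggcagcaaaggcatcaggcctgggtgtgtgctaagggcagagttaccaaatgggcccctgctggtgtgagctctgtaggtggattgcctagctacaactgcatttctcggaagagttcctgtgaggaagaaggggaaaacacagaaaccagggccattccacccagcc
Cyp8b1: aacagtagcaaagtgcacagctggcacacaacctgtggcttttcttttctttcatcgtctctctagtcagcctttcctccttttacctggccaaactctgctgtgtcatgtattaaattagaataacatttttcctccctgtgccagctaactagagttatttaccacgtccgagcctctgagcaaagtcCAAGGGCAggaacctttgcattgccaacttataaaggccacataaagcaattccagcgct
Nr0b2: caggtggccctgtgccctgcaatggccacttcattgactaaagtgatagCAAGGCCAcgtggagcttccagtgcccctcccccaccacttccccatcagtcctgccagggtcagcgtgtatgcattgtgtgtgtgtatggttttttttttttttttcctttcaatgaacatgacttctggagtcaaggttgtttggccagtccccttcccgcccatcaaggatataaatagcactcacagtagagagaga
The inverted repeat bound by FXR (GGTCA, 1 free base, TGACC, with at most 2 mismatches on both strands) stood at 62 to 52 bases before the start of Abcb11 with 1 mismatch, and again at 93 to 83 with 2. Slc51b held one at 186 to 176 with 1 mismatch. The same search found the repeat in 8.92% of 32851 promoters. The capitals also cover the half-site AGGTCA on either strand, at 56 to 51 in Abcb11, where it overlaps the repeat, and at 203 to 198 in Slc51b. That half-site was present in 14.0% of promoters. The NR5A2 motif CAAGG, any base, CA, searched on both strands, began 60 bases before the start of Cyp8b1 and 201 bases before that of Nr0b2, and occurred in 5.53% of promoters. Nr1h4 held 2 AGGTCA half-sites in a row with 1 base between them (at most 2 mismatches, both strands) at 221 to 209, found in 3.24% of promoters, and the exact half-site at 214 to 209 lies inside that match. Slc10a1 has 2 promoter entries, of which 1 held the half-site at 87 to 82, and none of these motifs was found in that of Cyp27a1. These matches are letters in a window and were not tested for binding.

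The 10 genes covered a wide range of levels in C 8w. Mean FPKM was highest for Cyp8b1 at 267 ± 96.1 (SD, n = 3) and Slc10a1 at 254 ± 22.5, whose samples overlapped. Below them came Cyp27a1 at 154 ± 10.1, Baat at 92.7 ± 8.37, Abcb11 at 79.7 ± 3.14, and then Nr0b2 at 56.1 ± 21.1 and Nr1h4 at 39.2 ± 1.09, which overlapped. Cyp7b1 at 31.5 ± 2.18 and Cyp7a1 at 24.7 ± 9.27 also overlapped, and Slc51b was last at 0.982 ± 0.489. After SALI the order differed. Slc10a1 (89.4 ± 10.7, n = 3) and Cyp27a1 (84.5 ± 9.21) led and overlapped, and Cyp7a1 came last at 2.19 ± 1.32, overlapping Slc51b at 3.88 ± 1.46. In C 12w every neighbour in the order overlapped the next except Cyp7b1 and Cyp7a1.

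**Figure D1:**
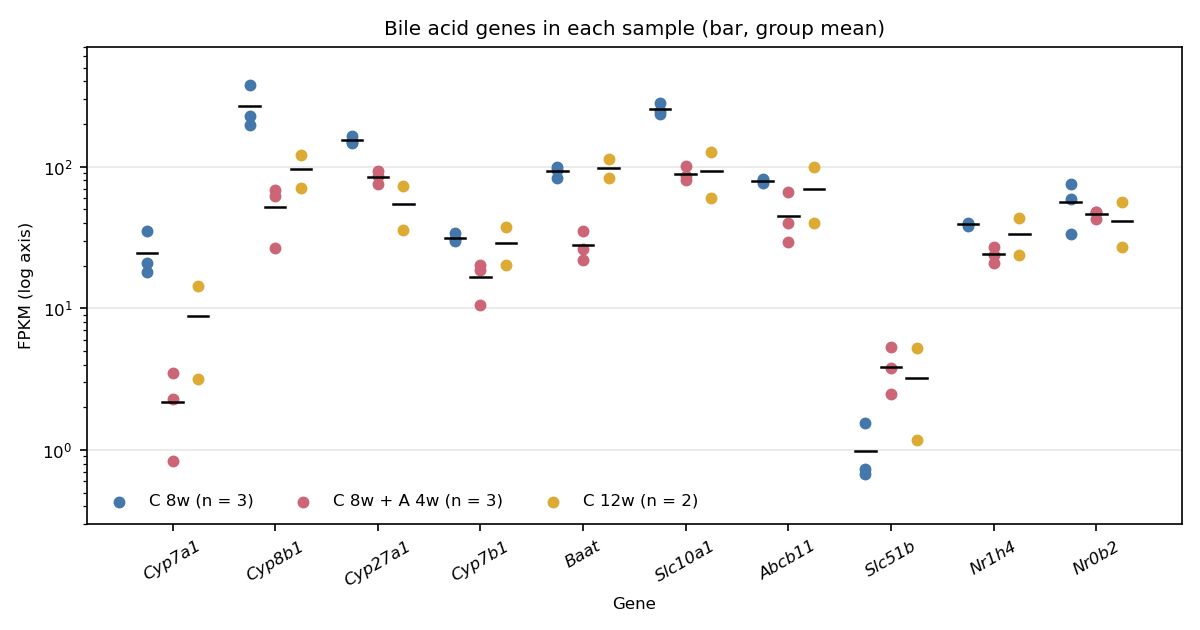
FPKM of the 10 bile acid genes (log axis) in each sample of C 8w (n = 3), C 8w + A 4w (n = 3) and C 12w (n = 2), with a bar at each group mean. The C 8w + A 4w points lie below all C 8w points for 8 genes, above them for Slc51b and among them for Nr0b2, where 61.4% of all tested genes do not overlap between these groups and 22.3% lie below.

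Adding 4 weeks of SALI to 8 weeks of MCLI asked how the injured liver responds to full NTBC withdrawal. The SALI samples were also taken 4 weeks later than C 8w, so withdrawal and 4 more weeks of injury and age cannot be told apart in this comparison. Against C 8w, 8 of the 10 genes passed the test (limma on log2(FPKM + 1), Benjamini-Hochberg adjusted p below 0.05), 7 lower and 1 higher in the SALI group. The count fell to 4, all lower, without 1a, 2a or C096, and to 5, all lower, without C098. In those 4 fits calls over all genes also fell, from 4034 to 2469, 2918, 3103 and 3214. The samples of the 2 groups did not overlap for 9 of the 10 genes, 8 lower and 1 higher after SALI, and for 61.4% of all genes tested, 22.3% lower and 39% higher. The 1 higher gene, Slc51b, passed the filter on low values through the SALI group, where it is high, and its call supports nothing. Of all genes tested, 39.4% were called in this comparison, 14.1% lower and 25.3% higher. The median log2 change over the 10 genes was -0.91, against 0.12 over all genes. Median-ratio scaling of the samples moved the median of all genes to -0.01 and the share of calls that were higher from 64.2% to 46.7%. Quantile normalization gave 47.1% and the same summed FPKM for every sample 53.5%. Under median-ratio scaling the 7 lower calls stood, and Slc51b was at an adjusted p of 0.0515. Lower levels in bulk liver can come from fewer hepatocytes or from less RNA per hepatocyte, and these cannot be told apart here.

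Cyp7a1, the first enzyme of the classic route, had the largest difference of the 10 genes. Its FPKM was 35.3, 20.8 and 18.1 in C 8w and 0.836, 3.47 and 2.27 in the SALI group. The lowest C 8w sample was thus above the highest SALI sample, and the means differed 11.3-fold. On the log2(FPKM + 1) scale, which understates the change of low genes, the difference was -3.05 (95% CI -4.19 to -1.90, limma adjusted p = 0.00209). Cyp8b1, the 12α-hydroxylase, stood at 376, 196 and 229 in C 8w and at 26.8, 61.8 and 67.9 in the SALI group. Its samples did not overlap either, with a 5.11-fold difference between means and a log2 difference of -2.38 (-3.28 to -1.49, adjusted p = 0.00206). Replicate C096 had the lowest value of both genes. Cyp7a1 ranked above 76.7% to 87.3% of tested genes in the C 8w samples and above 2.72% to 28.0% in those of the SALI group.

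Both enzymes of the alternative route fell as well. Cyp27a1, the mitochondrial sterol 27-hydroxylase, had an FPKM of 166, 150 and 148 in C 8w and of 75.0, 93.3 and 85.4 in the SALI group. No sample overlapped, and the log2 difference was -0.86 (-1.40 to -0.33, adjusted p = 0.0198). Cyp7b1, the oxysterol 7α-hydroxylase, stood at 30.8, 34.0 and 29.8 against 10.6, 20.3 and 18.7, a log2 difference of -0.94 (-1.56 to -0.32, adjusted p = 0.0256), again without overlap. Both calls depended on single samples. Cyp27a1 passed the threshold without 3a or without C097 but not without 1a, 2a, C096 or C098, with adjusted p from 0.0522 to 0.0744 in those 4 fits. Cyp7b1 missed it without 1a, 2a, 3a or C096, with adjusted p from 0.0598 to 0.0793.

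Baat had the smallest adjusted p of the 10 genes. It stood at 94.7, 99.9 and 83.5 in C 8w and at 21.9, 35.3 and 26.3 in the SALI group. The means differed 3.33-fold, with a log2 difference of -1.72 (-2.16 to -1.28, adjusted p = 0.000279). Slc10a1, the uptake carrier, was at 280, 248 and 236 and then at 81.1, 101 and 85.7, a 2.85-fold difference of means and a log2 difference of -1.50 (-2.08 to -0.93, adjusted p = 0.00231). Neither gene overlapped between the groups. Cyp7a1, Cyp8b1, Baat and Slc10a1 were the 4 genes called in all 16 alternative fits, the single samples left out included. The limit on fold change and the limit on shared sequence were applied to counts of genes only and are not among these fits.

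Of the exporters, Abcb11, the canalicular pump, was tight in C 8w at 76.2, 80.5 and 82.3 and spread from 29.3 in C096 to 65.7 in C097, with C098 at 39.9. All 3 SALI values lay below all 3 C 8w values, but the log2 difference of -0.89 (-1.70 to -0.08) had an adjusted p of 0.0776 and was not called. It was called without C097, at -1.20 (adjusted p = 0.0315), and without either C 12w sample, which change only the shared spread. Slc51b stood at 0.728, 0.673 and 1.55 in C 8w and at 5.37, 2.47 and 3.78 in the SALI group, without overlap, and the log2 difference was 1.28 (0.40 to 2.16, adjusted p = 0.0292). Only 1 of its 3 C 8w values reached an FPKM of 1, so the group where it is high carried it past the filter and the values are given as a description. It missed the threshold without 1a, 2a, C096 or C098, with adjusted p from 0.0742 to 0.0982. Slc51a, whose product OSTα is needed for the carrier, was listed at 0 in all 8 samples, which does not show its absence, and 16.2% of its windows are shared, chiefly with Pcyt1a.

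Of the receptor pair, Nr1h4 fell slightly. Its FPKM was 40.2, 39.4 and 38.0 in C 8w and 20.9, 27.2 and 23.9 in the SALI group, with a log2 difference of -0.69 (-1.16 to -0.22, adjusted p = 0.0276). No value overlapped, yet the call was lost when any of 1a, 2a, 3a, C096 or C098 was left out, at adjusted p from 0.0663 to 0.0891. Nr0b2, the SHP repressor, was spread widely in C 8w at 33.5, 75.2 and 59.6 and narrowly in the SALI group at 47.7, 42.9 and 48.2. The SALI values sat inside the C 8w range. The log2 difference of -0.20 (-0.94 to 0.54, adjusted p = 0.651) therefore leaves room for a change of either sign.

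**Figure D2:**
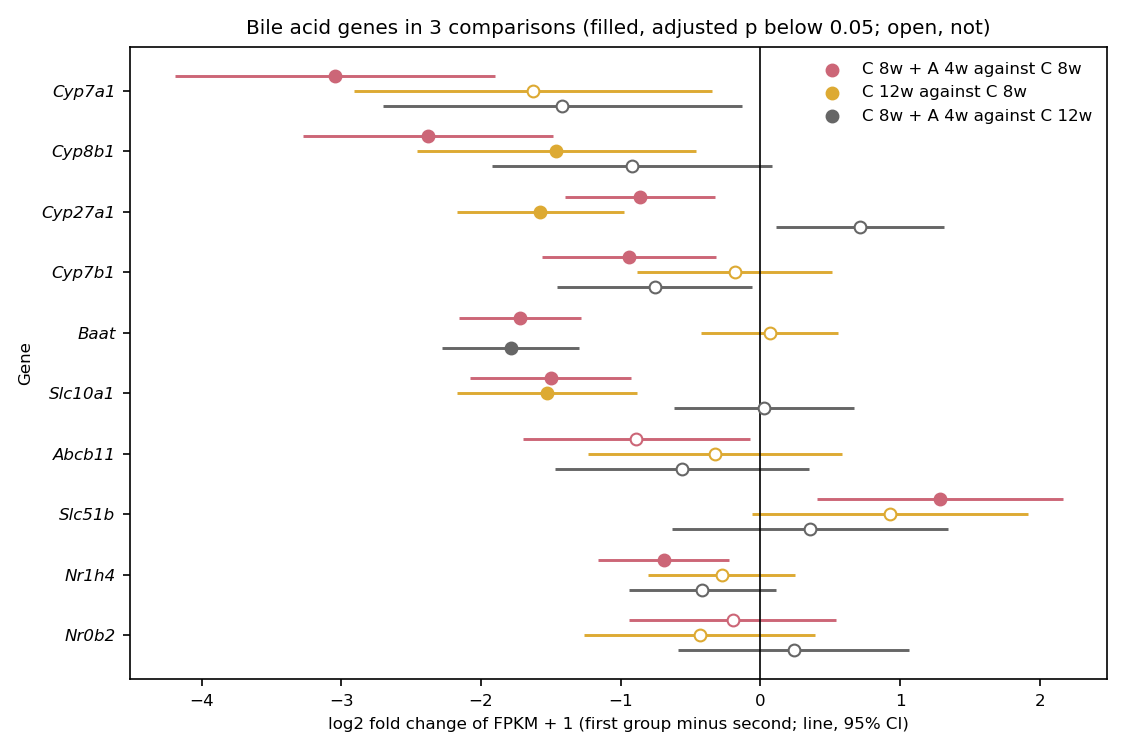
log2 fold change of FPKM + 1 for the 10 genes in 3 comparisons (first group minus second), with 95% confidence intervals and filled points for an adjusted p below 0.05. Filled points number 8 for C 8w + A 4w against C 8w, 3 for C 12w against C 8w and 1 for C 8w + A 4w against C 12w. The 3 comparisons share groups.

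Between C 8w and C 12w, which share a code series, 3 of the 10 genes were called, all lower in C 12w. Over all genes 19.2% were called, 6.98% lower and 12.2% higher, with a median log2 change of 0.12. The samples did not overlap for 4 of the 10 genes, all lower in C 12w, and for 54.5% of all genes, 19.6% lower and 34.9% higher. The share of calls that were higher was 63.6%, and it was 44.0% after median-ratio scaling, 46.9% after quantile normalization and 72.2% after scaling to the same summed FPKM. Cyp27a1 stood at 72.8 in 2e and 35.7 in 3e, below every C 8w value, with a log2 difference of -1.58 (-2.18 to -0.98, adjusted p = 0.00729). Slc10a1 was at 128 and 59.9, also below every C 8w value, at -1.52 (-2.17 to -0.88, adjusted p = 0.0104). Cyp8b1 was at 121 and 70.8, at -1.46 (-2.46 to -0.46, adjusted p = 0.0495), and this call was lost under 12 of 19 alternatives. Leaving out 1a, 2a, 3a, C097, C098 or 3e each ended it, at adjusted p from 0.0596 to 0.199. A fit without 2e or 3e leaves 1 sample in C 12w, which is then assumed to vary like the other groups. In the 4 samples numbered 2 and 3, with that number as a replicate block, 0 of the 10 genes were called and 4 had an unadjusted p below 0.05 (limma adjusted p = 0.0584 for Cyp27a1, 0.0834 for Slc10a1 and 0.134 for Cyp8b1).

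The 2 C 12w samples lay far apart for several of these genes, and each call made here without 2e or 3e rests on the single C 12w sample left, with its spread taken from the other groups. Cyp7a1 was 14.4 in 2e and 3.17 in 3e, both below the C 8w values, at a log2 difference of -1.63 (adjusted p = 0.0727) that was called without 2e (-2.57, adjusted p = 0.00571). Abcb11 was 99.4 and 40.2, on either side of the C 8w range. Slc51b was 5.28 in 2e, close to the highest SALI value, and 1.18 in 3e, inside the C 8w range. Its log2 difference was 1.69 without 3e. Since Slc51b passed the filter through the groups where it is high, these values are a description only. Nr1h4 (23.7 and 43.5), Nr0b2 (27.2 and 55.9) and Cyp7b1 (20.2 and 37.6) were lower in 2e than in 3e. Nr1h4 was called lower without 3e (-0.70, adjusted p = 0.0265). Baat, at 83.3 and 113, lay on both sides of its C 8w values, and its log2 difference was 0.07 (-0.42 to 0.56, adjusted p = 0.839). In all, 6 of the 10 genes were higher in 2e and 4 in 3e, where 39.2% of tested genes were higher in 2e.

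Directly between the SALI group and C 12w, both collected after 12 weeks, 1 of the 10 genes was called, Baat. In this comparison 32.8% of all genes were called, 15.4% lower and 17.4% higher, and the share of calls that were higher went from 53.1% to 35.9% with every sample scaled to the same summed FPKM. Every SALI value of Baat was below both C 12w values, 3.52-fold between means and -1.79 on the log2 scale (-2.28 to -1.30, adjusted p = 0.000538). The call held under all 16 alternatives. The median over the 10 genes was -0.49, against 0.01 over all genes. Cyp27a1 was 0.71 higher in the SALI group (0.11 to 1.31, adjusted p = 0.0692) and Cyp8b1 differed by -0.92 (-1.92 to 0.08, adjusted p = 0.14). Neither was called, although their samples did not overlap, which with Baat makes 3 of the 10 genes, 2 lower and 1 higher. Over all genes 52.3% did not overlap, 24.2% lower and 28.1% higher. Slc10a1 had nearly the same mean in both groups, 89.4 and 93.8, with an interval of -0.62 to 0.67 (adjusted p = 0.958). Without 2e 6 of the 10 genes were called in this comparison, where 4214 of the 10244 tested were, and without 3e 3 were, where 3124 of all were. Each of these fits has 1 C 12w sample, with its spread taken from the other groups.

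Ratios between genes of the same sample do not change when a sample is multiplied by 1 factor, and are given as a description. Cyp27a1 was 4.70 to 8.14 times as high as Cyp7a1 in C 8w, 26.9 to 89.7 times in the SALI group, and 5.07 and 11.3 times in C 12w. These starting enzymes of both routes were thus much further apart in every SALI sample than in any MCLI sample. Cyp8b1 over Cyp7a1 ranged from 9.42 to 12.6 in C 8w and from 17.8 to 32.04 in the SALI group, without overlap, but of the C 12w samples 2e was at 8.39 and 3e, at 22.3, lay inside the SALI range. Cyp7b1 and Cyp7a1 were nearly level in C 8w (ratio 0.873 to 1.64), whereas Cyp7b1 was 5.84 to 12.7 times as high in the SALI group. In C 12w that ratio was 1.404 in 2e and 11.9 in 3e, the latter again inside the SALI range. The ratio of Slc10a1 to Abcb11, uptake to canalicular export, was 2.87 to 3.67 in C 8w, 1.54 to 2.77 in the SALI group and 1.29 to 1.49 in C 12w. Nr0b2 over Nr1h4 overlapped between C 8w (0.834 to 1.91) and the SALI group (1.58 to 2.29).

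**Figure D3:**
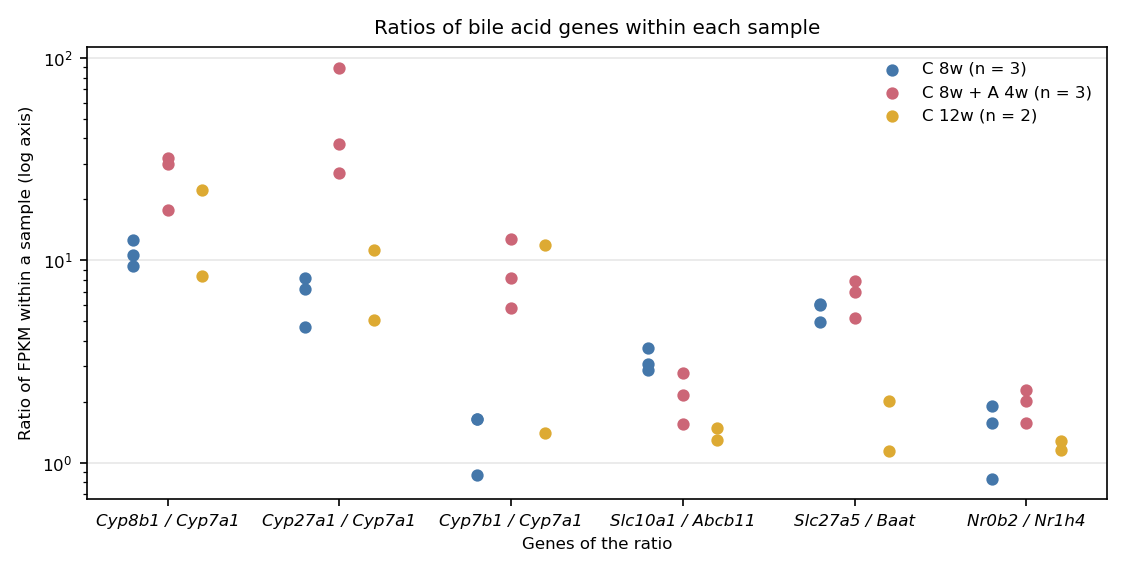
Ratios of FPKM between pairs of bile acid genes within each sample (log axis), coloured by group (C 8w, n = 3; C 8w + A 4w, n = 3; C 12w, n = 2). Ratios to Cyp7a1 lie higher in all 3 C 8w + A 4w samples than in all C 8w samples, C 12w sample 3e lies within the C 8w + A 4w range for Cyp8b1 and Cyp7b1, and the ratio of Slc27a5 to Baat is lowest in C 12w.

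Conjugation needs 2 steps, and the gene for the first was called lower in both other groups. Slc27a5 encodes the ligase that couples bile acids to coenzyme A before BAAT acts. Its FPKM was 574, 494 and 500 in C 8w, 173, 182 and 184 in the SALI group, and 168 and 129 in C 12w. Slc27a5 fell in both comparisons with C 8w, by 1.53 on the log2 scale after SALI (adjusted p = 0.000113) and by 1.82 in C 12w (adjusted p = 0.00102). The ratio of Slc27a5 to Baat was 4.95 to 6.06 in C 8w and 5.16 to 7.89 in the SALI group, but 2.02 and 1.15 in C 12w. Baat itself stood at 83.3 and 113 there.

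Around the 10 genes, 41 others of the same pathway were counted, and 35 passed the filter. Cyp46a1, Ch25h, Slco1a1, Slc51a, Gpbar1 and Fgf15 did not. Against C 8w, 15 of the 35 were called in the SALI group, 13 lower and 2 higher, with a median log2 change of -0.49. Over all genes 39.4% were called there, 14.1% lower and 25.3% higher. In C 12w 9 of 35 were called, 7 lower and 2 higher, with a median of -0.36, beside 19.2% of all genes. Between the SALI group and C 12w 9 were called, with a median of 0.00469, beside 32.8% of all genes. Of these, 5 were lower (Fgfr4, Prox1, S1pr2, Akr1d1 and Acox2) and 4 higher (Vdr, Acot8, Nr1i3 and Mafg). With both directions added, the totals of the 3 comparisons are near the shares over all genes. Without 1a, 2a, 3a or C098 the calls after SALI numbered 7, 9, 9 and 8, and without 2e or 3e they numbered 25. Calls over all genes moved the same way in these fits, from 4034 to 2469, 2918, 2991 and 3214, and to 5189 and 5187. Those in C 12w numbered 3 without 1a, 2a, 3a or C098 and 20 without 2e, where calls over all genes went from 1962 to 677, 941, 720 and 1411 and to 3702. Those between the SALI group and C 12w numbered 16 without 2e, where 4214 genes were called in all, against 3356 with both C 12w samples. Of the 9 calls between the SALI group and C 12w, 3 stood in all 16 alternative fits (Acot8, Fgfr4 and Vdr). Those of Akr1d1 and Acox2 were lost under 7 and 6. Vdr passed the filter through the SALI group, where it is high, so its calls support nothing. Of the 15 calls after SALI, 7 stood in all 16 alternative fits, which was true of none of the 9 in C 12w in 19. Those 7 were Akr1d1, Acox2, Slc27a5, Slco1b2, Nr1i3, Fgfr4 and Mafg. The log2 differences of Acox2 (-0.88) and Mafg (0.67) are under the fold limit of 1, and Nr1i3, with 63.6% of its windows shared, is over the limit on shared sequence.

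Of 11 further synthesis genes tested, 6 fell after SALI and none rose, where 14.1% of all genes were called lower and 25.3% higher. Akr1d1, the 5β-reductase of the sterol ring, stood at 89.1, 98.1 and 93.4 in C 8w and at 32.3, 52.5 and 53.5 in the SALI group (log2 difference -1.04, adjusted p = 0.00356). Acox2, the peroxisomal oxidase of the side chain, went from 155, 154 and 155 to 80.8, 82.7 and 88.2 (-0.88, adjusted p = 0.00193). Cyp2c70, which makes the muricholic acids of mice, Amacr, the side chain racemase, and Slc27a2, a very long chain ligase, were also called lower, with log2 differences of -1.04, -0.999 and -0.63. Leaving out any of 1a, 2a, 3a, C096 or C098 ended each of these 3 calls, at adjusted p from 0.0513 for Amacr to 0.0978 for Cyp2c70. Slc27a2 shares 9.80% of its windows with other genes, chiefly Gm26697. Hsd3b7 was also called lower, but 83.1% of its windows are shared with other genes, most of them with Gm49388, so its reads are uncertain. It missed the threshold without 1a, 3a or C096 (adjusted p from 0.0525 to 0.0548). In C 12w 2 of the 11 fell, where 6.98% of all genes did. They were Acot8, a peroxisomal thioesterase (24.1, 23.3 and 26.4 against 12.7 and 8.55, log2 difference -1.16, adjusted p = 0.00499), and Hsd17b4, the side chain hydratase and dehydrogenase (-0.60, adjusted p = 0.0328). Acot8 shares 9.77% of its windows, chiefly with Snx21, and lost its call in the 3 fits on the 4 samples numbered 2 and 3 (highest adjusted p = 0.0971). The call of Hsd17b4 was lost under 10 of 19 alternatives, among them leaving out 1a, 2a, 3a, C098 or 3e (adjusted p from 0.0576 to 0.106).

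Among the other transporters, an uptake carrier fell in both groups. Of 5 canalicular exporters 0 were called, though 3 had an unadjusted limma p below 0.05 after SALI. Slco1b2, an organic anion carrier of the sinusoidal membrane, was at 142, 126 and 129 in C 8w, at 11.8, 52.5 and 14.8 in the SALI group, and at 48.6 and 26.3 in C 12w. It fell in both comparisons, by 2.59 on the log2 scale after SALI (adjusted p = 0.00389) and by 1.86 in C 12w (adjusted p = 0.0454). The latter call was lost under 10 of 19 alternatives, among them leaving out 1a, 2a, 3a, C098 or 3e (adjusted p from 0.0632 to 0.182). Of 5 further canalicular genes, Abcb4, Abcc2, Abcg5, Abcg8 and Atp8b1, 0 were called by limma in any comparison. Of all genes 39.4% were called after SALI, 19.2% in C 12w and 32.8% between the SALI group and C 12w. The 5 genes stood on both sides of 0 after SALI. Abcb4 was at 0.47, Abcc2 at 0.56 and Atp8b1 at 0.45 on the log2 scale, but Abcg5 at -0.94 and Abcg8 at -0.50. At an unadjusted p below 0.05, 3 of the 5 passed after SALI (Abcb4, Abcc2 and, lower, Abcg5) and 0 in each of the other comparisons. Abcc3, a basolateral exporter, fell in C 12w (170, 169 and 181 against 66.2 and 128, log2 difference -0.91, adjusted p = 0.0347), a call lost under 11 of 19 alternatives, including each C 8w sample and C098 left out (adjusted p from 0.0586 to 0.101). Ephx1, an epoxide hydrolase listed here with uptake, fell there too (-0.82, adjusted p = 0.0339). That call was lost under 12, among them 1a, 2a, 3a, C097 or C098 left out (adjusted p from 0.0512 to 0.1).

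Of 13 further control genes tested, 5 fell and 2 rose after SALI, where 14.1% of all genes were called lower and 25.3% higher. Fgfr4, the hepatocyte receptor for the FGF signal that represses Cyp7a1, was called in all 3 comparisons. Its FPKM was 10.01, 9.38 and 7.38 in C 8w, 2.04, 2.30 and 3.04 in the SALI group, and 12.5 and 26.2 in C 12w. It fell after SALI by 1.52 on the log2 scale (adjusted p = 0.00196), and the SALI group against C 12w gave -2.48 (adjusted p = 0.000363). Against C 8w it rose in C 12w by 0.96 (adjusted p = 0.0436). This last call was lost under 15 of 19 alternatives, and in every fit that left out 1 sample other than 2e (adjusted p from 0.0563 to 0.175). Its coreceptor Klb was called in no comparison. Mafg, a small Maf factor known as a repressor of bile acid synthesis genes, rose after SALI from 13.4, 15.4 and 15.4 to 26.7, 21.9 and 23.3 (0.67, adjusted p = 0.0025). Vdr, the vitamin D receptor, rose by 0.61 from levels near 1 (0.854, 1.03 and 1.39) to 1.82, 2.54 and 2.19 (adjusted p = 0.0194). With 2 of 3 C 8w values and neither C 12w value reaching an FPKM of 1, it passed the filter through the SALI group, where it is high, and its call supports nothing. It missed the threshold without 1a, 2a, C097 or C098 (adjusted p from 0.0541 to 0.0832).

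The other control genes that fell after SALI were Nr1i3, Nr1h3, Rxra and S1pr2. Nr1i3, encoding the receptor CAR, fell in both comparisons with C 8w, at 33.0, 25.1 and 27.1 in C 8w, 10.3, 11.1 and 10.9 in the SALI group (-1.31, adjusted p = 0.000193) and 7.50 and 5.69 in C 12w (-1.95, adjusted p = 0.000642). It shares 63.6% of its windows with other genes, chiefly Tomm40l, so its reads are uncertain. Nr1h3, the oxysterol receptor LXRα, and Rxra, the partner of FXR, fell after SALI by 0.97 (adjusted p = 0.0146) and 0.53 (adjusted p = 0.0276). Leaving out 1a, C096 or C098 ended both calls, as did 2a or 3a for Rxra (adjusted p from 0.0527 to 0.092). S1pr2, a receptor for conjugated bile acids, fell by 0.57 (adjusted p = 0.0497) and lost that call under 10 of 16 alternatives, with 1a, 2a, 3a, C096 or C098 left out among them (adjusted p from 0.0636 to 0.156). Hnf4a and Nr5a2, which activate several of these genes, were called in no comparison. In the SALI group against C 12w, Prox1, a corepressor of Cyp7a1, and S1pr2 were called lower (-1.12, adjusted p = 0.0142, and -0.94, adjusted p = 0.0128). These calls were lost under 2 and 1 of 16 alternatives. Against C 8w, Prox1 was called higher in C 12w (0.94, adjusted p = 0.0426) at 14.1 in 2e and 27.5 in 3e. The call was lost under 11 of 19 alternatives, including 1a, 2a, 3a, C098 or 3e left out (adjusted p from 0.07 to 0.187).

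**Figure D4:**
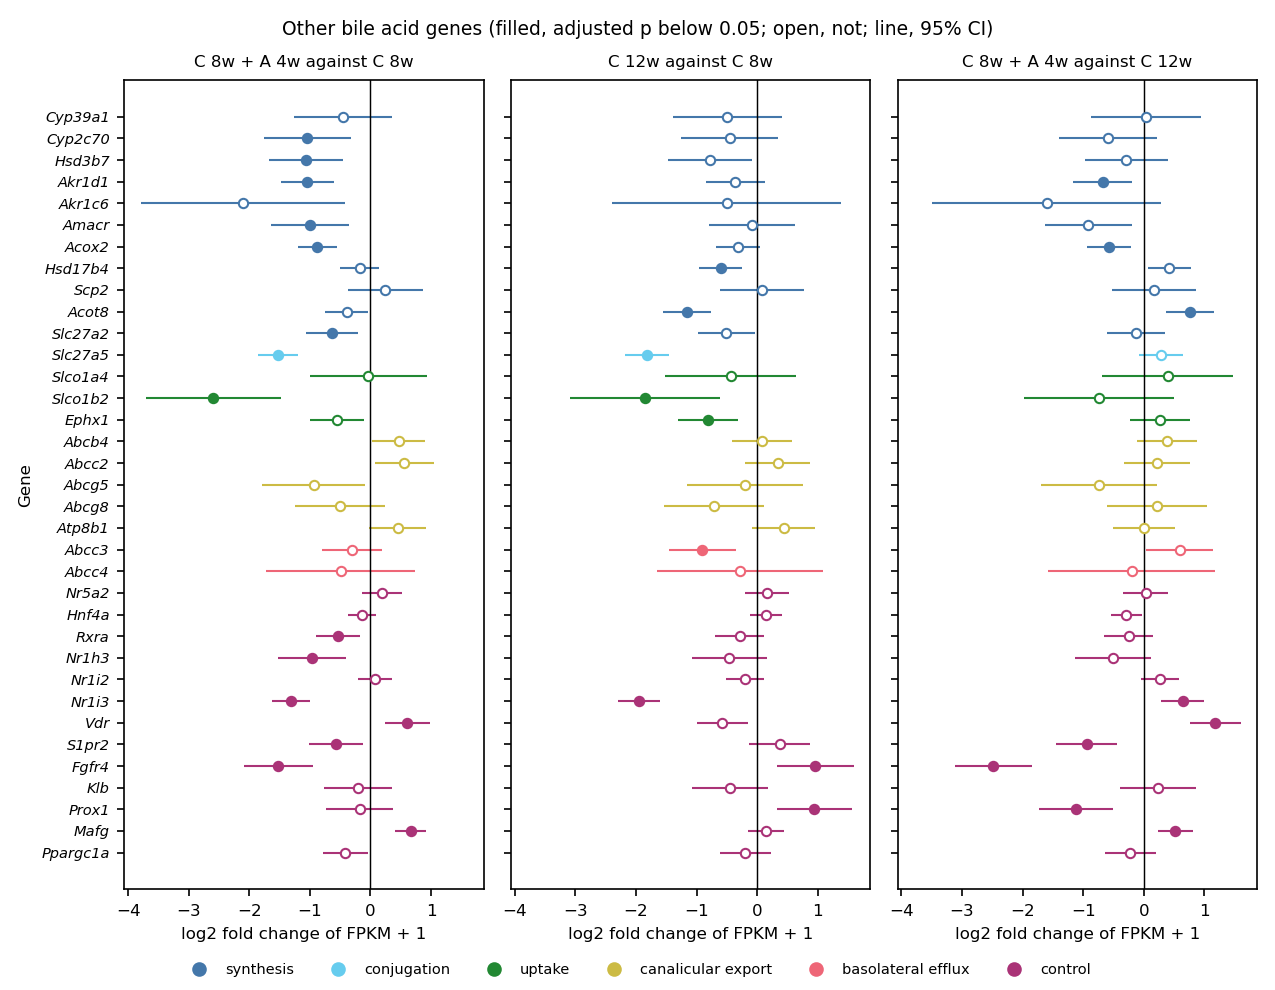
log2 fold change of FPKM + 1 for the 35 tested pathway genes in 3 comparisons (first group minus second), coloured by role, with 95% confidence intervals and filled points for an adjusted p below 0.05. The synthesis and conjugation genes lie mostly left of 0 in the first panel, and the canalicular export genes have open points in every panel.

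For each gene called in at least 1 comparison, the 2 other tested genes whose log2(FPKM + 1) followed it most closely over the 8 samples were found by Pearson correlation. The 8 samples fall in 3 groups and 2 code series, so these values describe a shared pattern only. Cyp7a1 was closest to Gabbr2 (r = 0.994) and Mfsd12 (0.988), and Cyp8b1 to Copz2 (0.977) and Sidt2 (0.976). Cyp27a1 was followed by Scap (0.995) and Slc46a1 (0.995), and Cyp7b1 by Glyat (0.997) and Abca8a (0.99). Scap encodes the escort of the sterol-regulated SREBP factors, and Glyat a glycine acyltransferase. Baat was followed by Isoc2a (0.993) and Mettl5 (0.992), and Slc10a1 by Dnase1l3 (0.991) and Ogfr (0.989). Nr1h4 was followed by Svip (0.984) and Ngef (0.982), and Slc51b by 2310030G06Rik (0.968) and Atp6ap2 (0.965). Among these neighbours, Mfsd12 (24.8%), Scap (9.96%), Sidt2 (8.94%), Mettl5 (3.12%) and Atp6ap2 (2.53%) share over 2% of their windows with another gene, so their reads are uncertain.

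Markers of cell types were measured in the same samples. Of the 10 hepatocyte markers 9 were tested. After SALI 3 were called lower (Apoc3, Cps1 and Arg1) and 1 higher (Apoa1), where 14.1% and 25.3% of all genes were. Ttr, Tat and Pck1 missed the threshold at log2 differences of -0.77, -1.26 and -1.26, and 7 of the 9 had an unadjusted limma p below 0.05. Hnf4a stayed between 81.2 and 93.2 in the samples of C 8w and the SALI group and was not called. Apoc3 was also called lower in C 12w than in C 8w, where 6.98% of all genes were. Tat and Cps1 were lower in the SALI group than in C 12w, where 15.4% were. Whether the bile acid genes fell more than these markers was not tested. The summed FPKM of 10 cholangiocyte markers was 13.6 to 18.7 in C 8w, 45.1 to 50.6 in the SALI group and 41.0 to 367 in C 12w. Spp1 alone held 8.26 to 11.8 of it in C 8w, 16.6 to 23.6 in the SALI group, 22.2 in 2e and 311 in 3e. Of 6 tested, 2 were called higher after SALI (Epcam and Cldn4) and 4 in C 12w (those and Sox9 and Spp1), where 25.3% and 12.2% of all genes were called higher, with Cftr and Sctr below 1 in all samples. No C 8w value of Epcam, Cldn4 or Sox9 reached an FPKM of 1, so these 3 passed the filter through the groups where they are high, and their calls support nothing. The bile acid carrier Slc10a2, one of these markers, was at 4.60 in 2e and 11.0 in 3e and at most 0.202 in the other 6. The 8 macrophage markers summed to 157 to 188 in C 8w, 124 to 438 in the SALI group and 137 to 176 in C 12w. Of the 8, 0 were called by limma in any comparison. Of all genes 39.4% were called after SALI, 19.2% in C 12w and 32.8% between the SALI group and C 12w. At an unadjusted p below 0.05, 0 of the 8 passed after SALI, 1 in C 12w against C 8w and 2 between the SALI group and C 12w. Their highest sum was in C097, which also held the highest SALI value of 7 of the 10 bile acid genes and of 49.5% of all genes tested. Of 6 endothelial markers, summing to 41.6 to 45.5, 19.5 to 36.9 and 23.4 to 28.2, Stab2, Kdr and Clec4g were lower in both comparisons with C 8w and Lyve1 was higher after SALI, where 14.1% of all genes were called lower after SALI and 6.98% in C 12w. Stellate cell markers summed to 24.7 to 26.7, 21.3 to 44.5 and 24.4 to 33.0. Against C 8w limma called 0 of 5 in either group, where 39.4% and 19.2% of all genes were called. Of the 5, 2 had an unadjusted p below 0.05 after SALI and 1 in C 12w. Lrat was called higher in the SALI group than in C 12w (1.32, adjusted p = 0.00692), where 17.4% of all genes were. Lymphocyte markers summed to at most 4.33 in any sample, retina markers to at most 3.68 and intestine markers to at most 65.6. Of these, Lgals4 was called, lower in the SALI group than in each other group, and it passed the filter through those groups, since no SALI value reached an FPKM of 1. The part of other cell types in the values above was not tested.

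Within the SALI group, 8 of the 10 genes had their lowest value in C096, against 38.9% of all genes tested. C097 held the highest value of 7 of the 10, against 49.5%. Among the 35 pathway genes tested, 23 were lowest in C096 and 22 highest in C097. Within C 8w the lowest value fell to 3a for 6 of the 10 genes, against 22.1% of all genes tested, and to 1a and 2a for 2 each, against 51.9% and 26.0%.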

How the data were processed

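RNA of 8 samples from mouse livers, 2 of them labelled tumor, was sequenced by the authors from TruSeq libraries, which do not mark strand. The deposited values were FPKM per gene, computed by the authors for 8 samples in 1 table. The submitters' processing notes list Bowtie 0.12.2 and mm8, with no role given. The counting tool and the handling of reads that map to several places are not given in the sources used here. Depth is unknown, since FPKM holds no counts, and the number of samples limits the precision. Nothing says how litters or cages fell among the groups, so p-values measure the spread between these samples. C 8w and C 12w share 2 sample numbers, which paired nothing in the labels.

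Groups were taken from the treatment labels. Genes that reached an FPKM of 1 in 4 or more samples (10244 of 22504) entered 1 fit over all 8 samples with limma 3.58.1 in R 4.3.3 (lmFit, eBayes with a trend) on log2(FPKM + 1), and p-values of all genes were adjusted by Benjamini-Hochberg for each comparison with a threshold of 0.05. The fit was tested on simulated data. C 8w enters 2 comparisons, which are not independent. The 10 genes and the pathway and marker lists were chosen with earlier results of these data known, and 1 gene first listed with the pathway is not reported here. All 10 genes were named in every sample, pathway genes where called in at least 1 comparison, and 2 nearest genes by Pearson correlation for each called gene. Windows of 50 bases were compared over GENCODE M21 transcripts on either strand. Promoters came from RefSeq (GRCm38.p6). Alternatives were another pseudocount (0.1), other filters, 3 scalings, no trend, 2 groups only, a fold limit and genes sharing at most 2% of windows (both for counts of genes only), single samples left out, and a replicate block. Alternatives for the pathway genes and 2 variants of the block were added after seeing the data.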

Additional observations from a re-analysis of the deposited data

How the results depend on the processing

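The changes of the 10 genes were computed in 16 alternative fits, or 19 for C 12w against C 8w. All 12 calls kept their direction under all of them, and 161 of 201 alternatives kept the call. The 18 results not called gained a call under 14 of 309 and changed sign under 16. Requiring a log2 fold change of at least 1 left 1128, 533 and 1177 genes called in C 8w + A 4w against C 8w, C 12w against C 8w and C 8w + A 4w against C 12w, with 5 of the 10 genes in the first and 7, 4 and 3 pathway genes. Keeping genes that share at most 2% of their windows left 6318 tested and 2194, 1241 and 1767 called. With no filter 5 of the 10 were called after SALI, where 4310 of 17762 genes were called in all. With only the 2 groups compared, pathway calls were 25, 4 and 5, and 5186, 1433 and 1996 genes were called in all. Quantile normalization left 4 pathway calls in C 12w against C 8w, where calls over all genes went from 1962 to 1904. Leaving out 1 sample gave 2469 to 5189, 677 to 3702 and 2494 to 4214 genes, 4 to 9, 2 to 4 and 1 to 6 of the 10, and 7 to 25, 3 to 20 and 7 to 16 pathway genes.

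Whether the sample numbers pair C 12w with C 8w could not be settled. The differences between numbers 2 and 3 had a correlation of -0.19 across genes in the 2 groups, but this compares a single difference from each group. With the replicate block, 252 genes, 0 of the 10 and 3 pathway genes were called in those 4 samples, with the numbers crossed 16, 0 and 0, and without a block 12, 0 and 0. These fits hold 4 of the 8 samples.

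The sign changes concerned differences that were not called. In C 12w against C 8w, Baat was -0.0889 with median-ratio scaling and between -0.15 and 0.28 with 1 sample left out, Cyp7b1 between -0.62 and 0.25, Nr1h4 between -0.70 and 0.15, Nr0b2 between -0.94 and 0.0707 and Abcb11 between -0.97 and 0.32. In C 8w + A 4w against C 12w, Slc10a1 was -0.15 with quantile normalization, -0.16 with the same summed FPKM and between -0.52 and 0.56 with 1 sample left out, Abcb11 between -1.20 and 0.0786, Nr0b2 between -0.27 and 0.74, Slc51b between -0.41 and 1.12 and Nr1h4 between -0.84 and 0.01003. Nr0b2 after SALI was between -0.52 and 0.0468.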
